A study of Homo sapiens with 6 samples.

Results

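WRN and ABRAXAS1 are a pair of DNA repair genes that were measured in PC3 cells, an established human prostate cancer cell line, after transfection with siRNA against clusterin mRNA (siCLU, 3 samples) or with scramble RNA (siSCR, 3 samples). Each gene is represented here by 1 probe that carries a RefSeq mRNA accession, A_23_P250813 for WRN and A_23_P253464 for ABRAXAS1. Whether probes without an accession also measure either gene was not examined. WRN and ABRAXAS1 are 2 genes among the 50 named by an accession, and their probes are 2 of 175287 in all. They were chosen by their higher signal in siCLU on these same arrays, so their differences between siCLU and siSCR are given as a description, and no test of them is used as support. Each of the 6 one-color Agilent arrays was hybridized with labeled cRNA from 100 ng of total RNA, and the groups differ by the siRNA alone according to the labels. The study asked how clusterin, a stress-activated chaperone, affects the cell cycle. The groups rest on 1 cell line and on 1 siRNA sequence per arm in the study's methods, and the time from transfection to RNA extraction is not given in the sources used here. RNA was taken from whole cultures, so more RNA per cell and more cells that hold the transcript cannot be told apart.

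WRN encodes a RecQ family helicase that also carries an exonuclease domain. It unwinds unusual DNA structures at replication forks and during homologous recombination, and its inherited loss causes Werner syndrome, a disorder of premature aging. ABRAXAS1, formerly FAM175A, encodes the scaffold of the BRCA1-A complex, which binds ubiquitin chains at DNA double-strand breaks through the subunit RAP80 and holds the deubiquitinase BRCC36. Both proteins belong to the response of dividing cells to DNA damage.

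Slide 1 held siSCR 1, slide 2 held siSCR 2, siSCR 3 and siCLU 3, and slide 3 held siCLU 1 and siCLU 2. For the arrays of slides 1 and 3, siRNA and slide cannot be told apart. siSCR 3 stood apart from the other arrays, with 45.9% of its spots well above background against 73.5% to 77.2% elsewhere, and with 23 bright tiles out of a grid of 20 by 10, which held 20516 spots. Of the spots of these genes, 1 WRN spot and 2 ABRAXAS1 spots of that array lay in bright tiles. No named probe stands for clusterin, so the knockdown was not checked here, and none of 20 marker genes of prostate epithelium and of other cell types has a named probe, so the labelled cell line was not checked by markers either.

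WRN was spotted 16 times and ABRAXAS1 15 times on every array, at scattered places. All 96 WRN spots and all 90 ABRAXAS1 spots over the 6 arrays were well above background, and none was saturated. The median ratio of spot signal to local background was 30.2 to 115 for WRN and 6.48 to 20.3 for ABRAXAS1, depending on the array. Feature Extraction marked 4 of these spots as outliers, which were left out of all means. They were the WRN spot in row 44 on siSCR 2 and on siCLU 2, an ABRAXAS1 spot in row 1057 on siCLU 3, and an ABRAXAS1 spot in row 394 on siSCR 3, which lay in a bright tile and read 609.3 against a highest value of 360.2 among the spots of that array that were kept.

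The WRN signal before normalization between arrays, as the geometric mean over spots in arbitrary intensity units, was 872, 1289 and 1726 on siSCR 1, 2 and 3, and 3461, 1961 and 2056 on siCLU 1, 2 and 3. After log2 transformation and quantile normalization, the scale of all log2 values here, it was 10.09, 10.49 and 10.69 in siSCR and 11.35, 10.82 and 11.11 in siCLU. All siCLU arrays were above all siSCR arrays on either scale, but siCLU 2 was above siSCR 3 by 0.13 only. The siCLU mean was 11.09 ± 0.27 and the siSCR mean 10.43 ± 0.31 (SD, n = 3 arrays each). The log2 difference of siCLU minus siSCR was 0.67 (standard error 0.23 from limma), a 1.59-fold higher signal in siCLU.

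The ABRAXAS1 signal before normalization was 163, 232 and 283 on siSCR 1, 2 and 3, and 557, 357 and 431 on siCLU 1, 2 and 3. Its log2 values were 7.72, 8.02 and 7.97 in siSCR and 8.72, 8.42 and 8.85 in siCLU. Here too the groups did not overlap, and the gap between siCLU 2, the lowest siCLU array, and siSCR 2, the highest siSCR array, was 0.40. The siCLU mean was 8.67 ± 0.22 and the siSCR mean 7.90 ± 0.16 (SD, n = 3 arrays each). They differed by 0.76 on the log2 scale (standard error 0.18 from limma), or 1.70-fold. In both genes siSCR 1 was the lowest array of all, and siCLU 2 the lowest of its group.

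**Figure D1:**
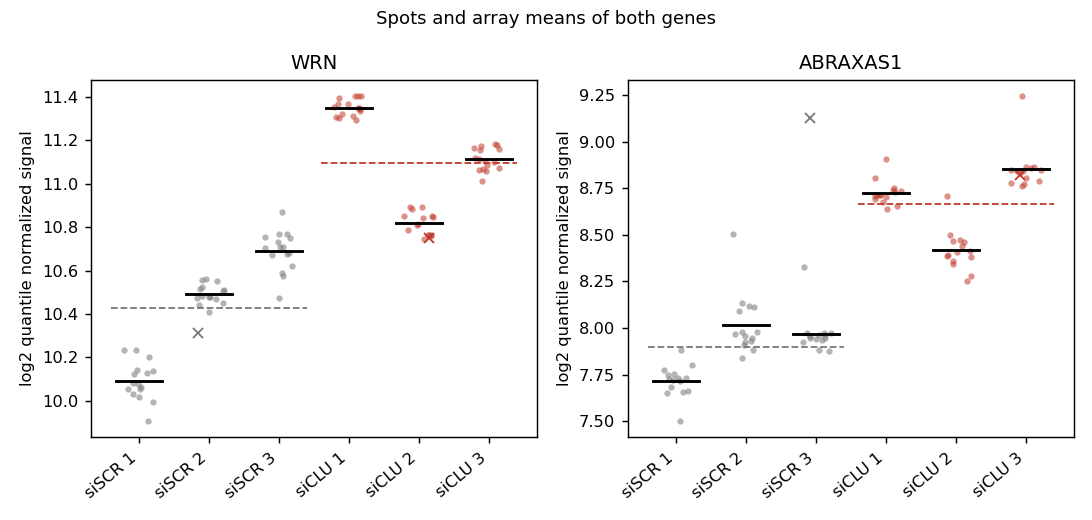
Log2 quantile normalized signal (vertical axes, which do not start at 0) of WRN and ABRAXAS1 on each siSCR (gray) and siCLU (red) array, with points for spots, crosses for spots marked as outliers and left out, black bars for array means and dashed lines for group means. The spots of WRN on 1 array lie close together while array means range from 10.09 to 11.35. The ABRAXAS1 outlier on siSCR 3, at 9.13, lies above the mean of every siCLU array.

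The study's methods set limits of 0.05 for the adjusted p and 1.5 for the fold. In limma, 0 of these 2 genes met both, against 1.62% of the 130718 probes that were well above background on at least 3 arrays. At an unadjusted p of 0.05 and the same fold, 2 of 2 passed in limma, against 16.3% of all kept probes, and 2 of 2 in the methods' t-test, against 10.3%. Probes on which all siCLU arrays were above all siSCR arrays made up 19.1% of kept probes, and 2 of these 2 genes were among them. As the genes were chosen on this contrast, nothing is read from these counts.

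Of all kept probes, 16.3% had a larger increase in siCLU than WRN and 13.2% a larger increase than ABRAXAS1. The median log2 difference over all kept probes was 0.12, so the increase relative to it was 0.55 for WRN and 0.64 for ABRAXAS1. This median depended on siSCR 3. Without that array the median was 0.03. The log2 difference itself was then 0.80 for both genes, as siSCR 3 also enters their own means. The increase relative to the median was then 0.77 for WRN and 0.76 for ABRAXAS1. With array weights the median was 0.06. When only probes detected well above background on every array were kept, the median was 0.02, and 6.70% and 4.65% of them had a larger increase than WRN and ABRAXAS1.

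The spots of a gene on 1 array share the labeled cRNA of 1 sample, so they show the precision of the array and not the spread between samples. For WRN the SD between spots was 0.04 to 0.09 on the log2 scale, with a median over arrays of 0.05, while the SD between arrays of a group, pooled over both groups, was 0.29, or 5.51 times as large. For ABRAXAS1 the SD between spots was 0.06 to 0.16 with a median of 0.11, and the SD between arrays was 0.20, or 1.84 times as large. The latter ratio rests on 1 spot in the first row of the array, without which the SD between ABRAXAS1 spots was 0.03 to 0.09 with a median of 0.06, the SD between arrays 0.19, and the ratio 3.32. Averaging the spots left a standard error of at most 0.02 for a WRN array mean and 0.04 for an ABRAXAS1 array mean.

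Compared at the same place on the array, the lowest siCLU array was above the highest siSCR array at 16 of 16 WRN places and at 14 of 15 ABRAXAS1 places, with outlier spots counted. The exception was the place in row 394 that was marked as an outlier on siSCR 3. The log2 difference of siCLU minus siSCR at single places ranged from 0.58 to 0.77 for WRN, and from 0.33 at the least to 0.85 for ABRAXAS1.

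This first-row spot lay in column 147 and read above its companions. It was the brightest of the ABRAXAS1 spots kept on all arrays but siSCR 1, where it ranked 3, and exceeded the median of the others 1.46 times on siSCR 2, 1.29 times on siSCR 3, and 1.14, 1.25 and 1.33 times on siCLU 1, 2 and 3. On siSCR 1 the ratio was 1.03. Without this spot the log2 difference between groups was again 0.76. Of the 16 WRN spots, 1 carries no accession, the spot in row 829 and column 142, and it read 0.951 to 1.03 times the median of the others.

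**Figure D2:**
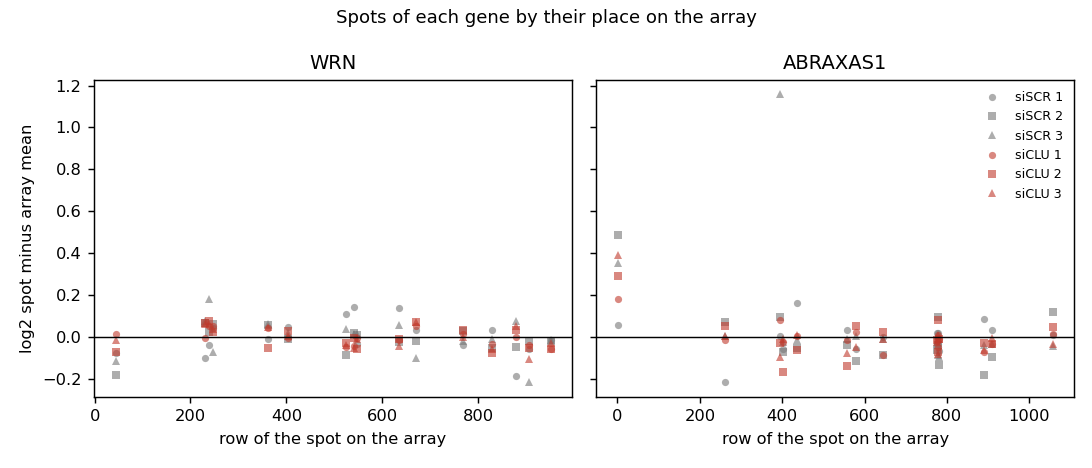
Log2 value of each spot minus the mean of its gene on that array (vertical axis) against the row of the spot on the array (horizontal axis), for siSCR (gray) and siCLU (red) arrays, with symbols for the replicate number and outlier spots included. Most spots lie near 0, while the ABRAXAS1 spot in row 1 lies above 0 on all 6 arrays and the spot in row 394 is far above on siSCR 3 alone.

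Slide 2 is the only slide with both groups. On it WRN was higher in siCLU 3 than in siSCR 2 by 0.62 and than in siSCR 3 by 0.42, a mean of 0.52, and ABRAXAS1 was higher by 0.84 and 0.88, a mean of 0.86. These arrays were among those on which the genes were chosen. With slide as a block, a fit that reduces to the same comparison of 1 siCLU array with 2 siSCR arrays, the standard error was 0.36 for WRN and 0.29 for ABRAXAS1. Over all 9 pairs of a siCLU array and a siSCR array, the difference ranged from 0.13 to 1.26 for WRN and from 0.40 to 1.14 for ABRAXAS1.

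Of a list of 144 symbols of DNA repair genes, 7 have a named probe, and all 7 were well above background on all 6 arrays. In limma, 0 of the 7 passed the adjusted threshold as higher and 0 as lower. At an unadjusted p, 2 passed with the fold limit in limma and 2 in the methods' t-test, which were WRN and ABRAXAS1 themselves. The other 5 genes had a median log2 difference of 0.12. The median was also 0.12 over all kept probes, but 0.02 over probes well above background on every array. The latter probes are the closer comparison, as all 7 genes are among them. Of the 5 genes, 4 lay above 0, where 60.2% of all kept probes lay. The share above 0 among probes well above background on every array is not given here.

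SMARCAD1, a chromatin remodeler that acts in the resection of DNA ends, had log2 values of 10.14, 10.84 and 11.03 in siSCR and 11.36, 10.70 and 11.08 in siCLU, with a log2 difference of 0.38 (standard error 0.30). RAD54B, a translocase of homologous recombination, had a log2 difference of 0.24 (standard error 0.27). EXO1, the exonuclease of end resection and mismatch repair, had 0.12 (standard error 0.19). The groups overlapped in all of these genes. BRCA1, which is recruited to breaks with the complex that ABRAXAS1 holds together, had log2 values of 8.68, 8.69 and 8.99 in siSCR and 9.08, 8.70 and 8.86 in siCLU, with a difference of 0.09 (standard error 0.18). DTL, a substrate receptor of a ubiquitin ligase that degrades replication factors after damage, was the only one of the 7 below 0, at -0.22 (standard error 0.19). Adjusted p of these 5 genes from limma was 0.49 to 0.77, and the size of each difference was under the fold limit. Whether the changes of WRN and ABRAXAS1 differed from those of the other 5 was not tested. The other RecQ helicases and the other subunits of the complex that ABRAXAS1 belongs to are not analysed here.

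**Figure D3:**
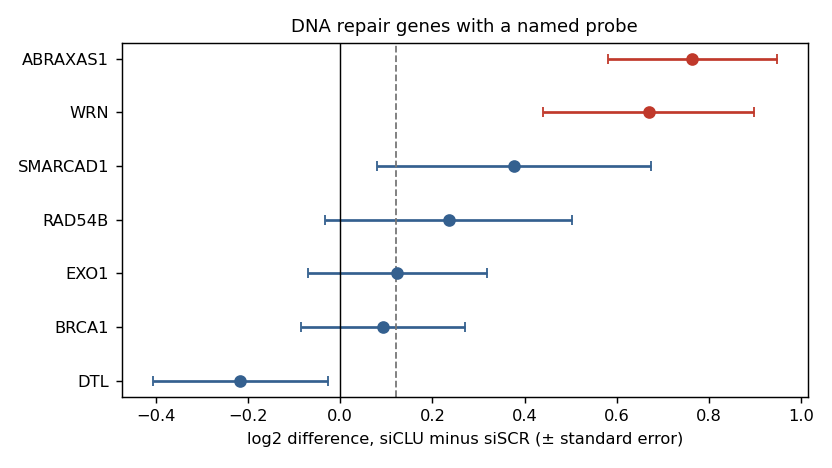
Log2 difference of siCLU minus siSCR (horizontal axis) for the 7 listed DNA repair genes with a named probe, as points with the standard error from limma as bars, WRN and ABRAXAS1 in red and the others in blue. The solid line marks 0 and the dashed line the median of all kept probes, 0.12, and the 5 other genes range from -0.22 to 0.38.

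Among the 43 named genes that were kept, the 3 whose log2 values over the 6 arrays were most like those of WRN were CENPE, a kinesin of the kinetochore, UCHL5, a deubiquitinase of the proteasome, and ATAD2, a chromatin factor of S phase, each with Pearson's r of 0.95. Their log2 differences were 0.85, 0.69 and 0.56. Those most like ABRAXAS1 were WRN itself, with r of 0.93, UCHL5 with 0.86 and RPAP3, a partner of HSP90, with 0.85. After each group's mean was taken out, r with WRN was 0.91 for CENPE, 0.82 for UCHL5 and 0.94 for ATAD2. The genes were picked by r over the same arrays, so nothing is read from these values. With ABRAXAS1 it was 0.78 for WRN, 0.36 for UCHL5 and 0.47 for RPAP3. CENPE, for instance, was 9.61, 10.08 and 10.42 in siSCR and 11.59, 10.42 and 10.64 in siCLU, with its highest value on siCLU 1, as for WRN. These points share 6 arrays and 1 normalization, and r is given as a description. The part of cell cycle state in the WRN and ABRAXAS1 signal was not tested.

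WRN and ABRAXAS1 were higher in siCLU under each of 18 other ways to process or divide the data, with a log2 difference of 0.50 to 0.95 for WRN and 0.63 to 1.001 for ABRAXAS1. The highest value of each was that without normalization between arrays, where the median of all kept probes was itself at 0.33. Every siCLU array was above every siSCR array in both genes. The sign was therefore given in advance where arrays were only left out, weighted or compared within a slide. Slide as a block repeats the value from the slide with both groups, and the replicate block repeats the reported value. As the genes were also chosen as higher in siCLU, nothing is read from the sign.

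**Figure D4:**
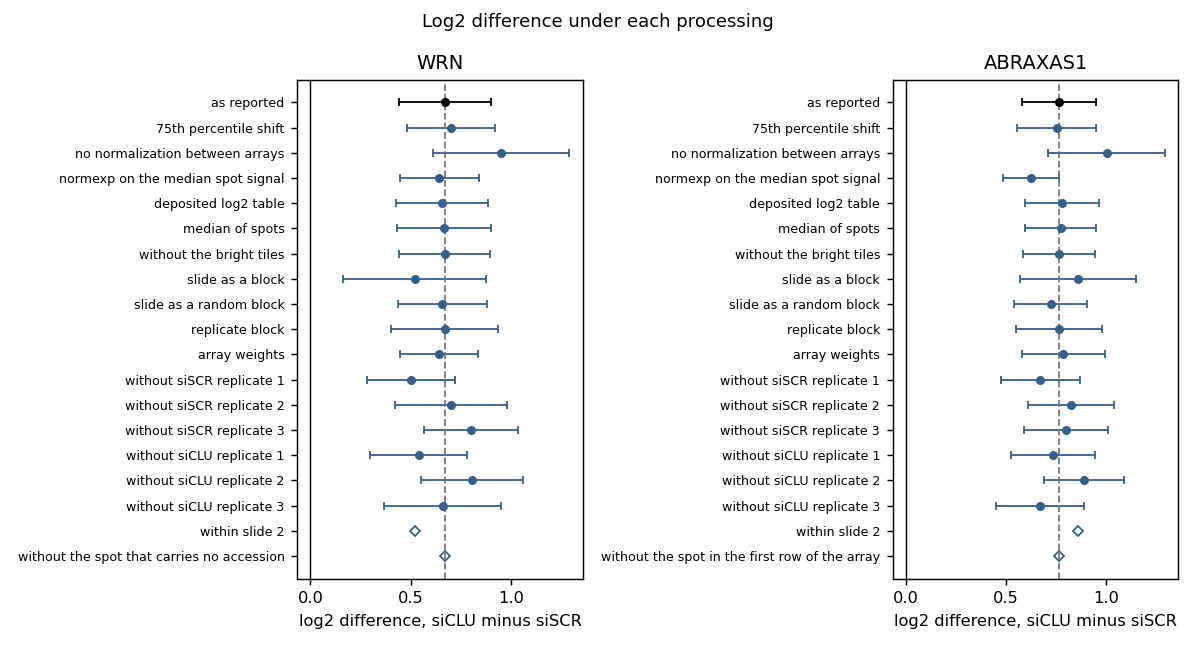
Log2 difference of siCLU minus siSCR (horizontal axes) for WRN and ABRAXAS1 as reported (black) and under each alternative (blue), with the standard error from limma as bars and open diamonds for values with no standard error. The dashed line marks the value as reported, 0.67 for WRN and 0.76 for ABRAXAS1, and all values lie above 0.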

How the data were processed

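Scans made by the authors at 3 μm were read with Agilent Feature Extraction, version 10.5.1.1 per the file headers and 10.10 per the labels. For each spot they deposited a linear intensity, corrected for background and detrended within the array, with flags for outliers and for signal well above background. They also deposited a table of log2 values, quantile normalized per the study's methods. Here log2 of the processed intensity (floor 1) was quantile normalized over 176032 non-control spots, outlier spots were left out, spots of a probe were averaged, and probes well above background on at least 3 arrays were kept.

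limma 3.58.1 compared siCLU with siSCR in R 4.3.3, with Benjamini-Hochberg adjustment over all kept probes. In simulated data with the spread of the kept probes, limma found 0 of 200 probes changed by 1 on the log2 scale and 59 of 200 changed by 2, with 3 false calls in the latter. Only those 200 of 130673 probes were changed there, and the simulated noise was independent, with no slide or array effect. The real data differ in this, so the simulation does not give the share of real changes that would be found. The number of arrays limits the precision. Accessions of all 50 named probes were matched to RefSeq symbols of GRCh38.p14, from which only names were taken, because the array design uses hg19. The genes, the lists and the tests were chosen with earlier results of these data known. Genes were named by a rule: both members, each listed DNA repair gene with a named probe, and the 3 kept named genes most correlated with each member. Sequences of the probes are not given here. Alternatives were other normalizations, background corrections, filters, blocks and tests, the deposited table, and each array left out.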

Additional observations from a re-analysis of the deposited data

How the results depend on the processing

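The log2 difference moved by more than the SD between arrays only for ABRAXAS1 (SD 0.20) without normalization between arrays, to 1.001. There it moved further for WRN, to 0.949 (SD 0.29). With 1 array left out in turn it was 0.50 to 0.81 for WRN and 0.67 to 0.89 for ABRAXAS1. The alternatives without single spots were chosen after seeing the data. The number of these 2 genes past the adjusted threshold was 0 as reported, 1 (ABRAXAS1) with normexp on the median spot signal, under the filter that asks for signal on every array, and with a trended and robust prior, 2 by the methods' t-test with unadjusted p, and 0 under the other alternatives, each array left out included. The cause of these changes was not tested. The share of all probes past the threshold moved under these settings too, and also under others where the count of these 2 genes stayed at 0. Of 130718 probes, 2112 passed in limma, 3787 without normalization between arrays, 5319 with a 75th percentile shift, 9312 with normexp, 4478 with slide as a random block, 13522 with array weights and 8914 with a trended and robust prior. Under the filter for signal on every array, 8173 of 77980 passed. The methods' t-test gave 13459 with unadjusted p and 2 after adjustment. In limma with no filter on dim probes, 0 of 175287 probes passed (22748 at unadjusted p with the fold limit). With slide as a block in limma, 0 of 130718 passed (6971 at unadjusted p with the fold limit). Same-numbered arrays were not seen to deviate together, with correlations of -0.04, -0.24 and 0.16. Correlations this few cannot exclude that the numbers pair the arrays. With the replicate block the log2 differences stayed at 0.67 and 0.76 by construction, with standard errors of 0.27 and 0.21, and 0 probes passed (20040 at unadjusted p). With 1 array left out the count was 0 to 4237, the latter without siSCR 3. Each of the other 5 omissions gave 0, with 16536 to 21900 probes at unadjusted p and the fold limit.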
